A study of Danio rerio with 16 samples.

Results

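The genes described here are 7 markers of the nervous system and the neural crest, followed through primordial germ cells (PGCs) and somatic cells of the zebrafish embryo. They are *elavl3* (ENSDARG00000014420), *neurog1* (ENSDARG00000056130), *neurod1* (ENSDARG00000019566), *dla* (ENSDARG00000010791), *olig2* (ENSDARG00000040946), *sox10* (ENSDARG00000077467) and *gfap* (ENSDARG00000025301). They were chosen by name, and are 7 of the 34289 Ensembl genes in the tables. All 7 passed the filter on low counts that left 20536 genes to test.

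RNA-seq libraries of PGCs and of the remaining somatic cells covered 4 stages (4, 7, 24 and 36 h post fertilisation, hpf), with 2 replicates of each, so that 16 libraries form 8 groups. Embryos kept beyond 24 h received PTU, which blocks pigment formation. Both cell populations came from embryos of the kop-EGFP-F-nos3'UTR transgenic line, which by the study's methods also carries cry:DsRed, and were separated by fluorescence-activated cell sorting (FACS). In this line the germ plasm gene promoter *kop* drives membrane-bound EGFP, and the *nanos3* 3' end limits it to germ cells. Soma is therefore a pool of all the other tissues of the embryo, not a neural population. For marker expression in PGCs and soma the study calls its 2 replicates biologically independent. Nothing in the labels says that replicates came from separate clutches, so p-values measure the spread between these samples, which may be technical in part. For soma 24 hpf replicate 1, the source name says PGCs while its title and cell type say soma, and it was used as soma.

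In a vertebrate embryo the proneural factors switch on Delta ligands, which signal through Notch to neighbouring cells and hold them back as progenitors. *neurog1* is such a proneural factor, *dla* is a Delta ligand, and *neurod1* acts later, as neurons differentiate. *elavl3* encodes the RNA-binding protein HuC, a standard label of young neurons. *olig2* marks the progenitors of motor neurons and oligodendrocytes, *gfap* encodes the intermediate filament of radial glia, and *sox10* is a factor of neural crest cells and their pigment and glial descendants. PGCs are set aside early in the embryo and migrate to the site of the gonad.

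The total of expected counts per library lay between 2825775 and 15633266, and 3 counts, the smallest number taken here as a signal, stood for 0.182 to 0.719 CPM (counts scaled to a common library total, with TMM factors). That floor takes in counting error alone, and the reads carry no molecular identifiers. Replicates differed by more than counting error in each group, with a chi-square per degree of freedom between 16.3 and 119. The labels were checked with 6 germ cell genes (*nanos3*, *dnd1*, *tdrd7a*, *ddx4*, *dazl* and *ca15b*). The study itself used the first 5 as markers of these sorts, and all 6 were picked with results of these samples known. None of the 6 is thus independent evidence. Their summed level was 807 and 602 CPM in the PGC libraries of 24 hpf and 950 and 2247 CPM in those of 36 hpf, against 4.98 and 12.2 CPM in soma at 24 hpf and 5.30 and 1.90 CPM in soma at 36 hpf. Both PGC libraries of 36 hpf thus carried germ cell RNA, replicate 1 at a lower level than replicate 2.

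At 4 hpf, in the blastula, the 7 genes were at or close to 0 in all 4 libraries. The highest count was 9, for *dla* in PGC replicate 2, and *neurod1* and *sox10* had no count in any library. *neurog1* had 5 and 7 counts in PGCs and none in either soma library. None of the 7 genes was called between PGCs and soma at 4 hpf, where calls needed an adjusted p under 0.05 and a log2 fold change past 1.5 (edgeR's quasi-likelihood test, Benjamini-Hochberg adjusted), beside 0.0438% of all genes called higher in PGCs and 0% called lower. At an unadjusted p under 0.05, 1 gene passed, *neurog1* (adjusted p = 0.939). DESeq2 and the likelihood ratio test called 0 as well.

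At 7 hpf, during gastrulation, *dla* was the only one of the 7 with more than 50 counts in a library. It stood at 13.8 and 23.5 CPM in PGCs, against 43.8 and 51.2 CPM in soma. The PGC libraries lay below both soma libraries for 3 of the 7 genes (*dla*, *elavl3* and *sox10*) and for 23.4% of all genes. For *dla* the log2 fold change of -1.35 (SE 0.74) had an adjusted p of 0.302 in edgeR's quasi-likelihood test. *elavl3* had 5 and 9 counts in PGCs and 16 and 44 counts in soma, at 0.876 and 2.11 CPM in PGCs and 2.58 and 9.62 CPM in soma. *sox10* had no count in PGCs and 1 and 3 counts in soma, and *gfap* had none in PGCs and 0 and 5 in soma, all too few for a fold change. None of the 7 genes was called at 7 hpf, beside 0.813% of all genes called lower in PGCs and 3.16% called higher. At an unadjusted p under 0.05, 1 gene passed, *sox10* (adjusted p = 0.200 in edgeR's quasi-likelihood test). DESeq2 called 0 of the 7. EdgeR without a filter on low counts called 1, *elavl3*, beside 1857 of all 27454 genes in either direction. The filtered fit called 648 genes higher and 167 lower.

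From 4 to 7 hpf *dla*, the Delta ligand, rose in both cell populations. It rose in PGCs by 4.39 on the log2 scale (SE 0.96, adjusted p = 0.0127, edgeR's quasi-likelihood test), the only 1 of the 7 genes called there, with 5.03% of all genes called higher. In soma it rose by 6.45 (SE 1.06, adjusted p = 0.000799). Soma had a second call, *elavl3*, at 4.68 (SE 1.37, adjusted p = 0.0238), so that 2 of 7 were called, with 9.29% of all genes called higher. The call of *dla* in PGCs was lost without PGC 4 hpf replicate 1 (adjusted p = 0.123) or PGC 7 hpf replicate 2 (adjusted p = 0.0531). That of *elavl3* in soma was lost without either soma 4 hpf library or without soma 7 hpf replicate 2 (adjusted p = 0.0622, 0.150 and 0.168).

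From 7 to 24 hpf all 7 genes rose in the PGC libraries, where 18.2% of all genes were called higher. *elavl3* reached 239 and 219 CPM at 24 hpf, with a log2 change of 7.29 (SE 1.07, adjusted p = 0.000365, edgeR's quasi-likelihood test). *gfap*, which had no count in the PGC libraries of 7 hpf, reached 205 and 228 CPM, at least 291-fold above the floor of 3 counts in a library. The genes with lower levels that were likewise at 0 at 7 hpf were *sox10* (at least 27.5-fold higher), *neurod1* (at least 12.3-fold higher) and *olig2* (at least 7.03-fold higher). *neurog1* rose by 4.70 (SE 1.12, adjusted p = 0.00775) and *dla*, already present, by 2.44 (SE 0.76, adjusted p = 0.0269). Without either PGC library of 7 hpf, 4 of 7 were called, the calls of *neurog1*, *dla* and *olig2* being lost, and that of *dla* was also lost without either PGC library of 24 hpf. Limma on log2(TPM + 1) did not call *neurod1* (adjusted p = 0.0664) or *olig2* (adjusted p = 0.0516), and limma on log2(TPM + 0.1) did not call *dla* (adjusted p = 0.0658).

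In soma 6 of the 7 genes rose from 7 to 24 hpf, where 22.1% of all genes were called higher, and *dla* changed by 1.14 (SE 0.72, adjusted p = 0.225, edgeR's quasi-likelihood test). *neurod1* was at 0 in soma at 7 hpf and at least 39.2-fold higher at 24 hpf. Scaled for depth, the summed counts were 43.1-fold higher at 24 hpf for *elavl3* (95% counting interval 33.4 to 56.6), 348-fold higher for *gfap* (149 to 1072) and 91.2-fold higher for *sox10* (35.4 to 336), the last from 4 counts. These intervals leave out the spread between libraries. With that spread, the 95% intervals of the edgeR fit were 9.93 to 164 for *elavl3*, 58.1 to 1868 for *gfap* and 23.1 to 311 for *sox10*. The soma calls of *neurog1* and *olig2* were lost without soma 7 hpf replicate 1, and that of *olig2* also without soma 7 hpf or 24 hpf replicate 2 and in limma on log2(TPM + 1), where it changed by 1.43. The change from 7 to 24 hpf itself was not called different between PGCs and soma for any of the 7 genes, beside 0.00974% of all genes with a larger change in PGCs and 0.122% with a smaller one, and none of the 7 passed at an unadjusted p under 0.05. DESeq2 and the likelihood ratio test called 0 there too. For *neurod1*, at 0 in both populations at 7 hpf, this difference could not be estimated. *olig2*, *sox10* and *gfap* were at 0 in PGCs at 7 hpf. Their 95% intervals in the edgeR fit were wide, at -3.26 to 10.5, -0.47 to 8.66 and -1.61 to 12.1 on the log2 scale. For these genes the lack of a call says little.

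**Figure D1:**
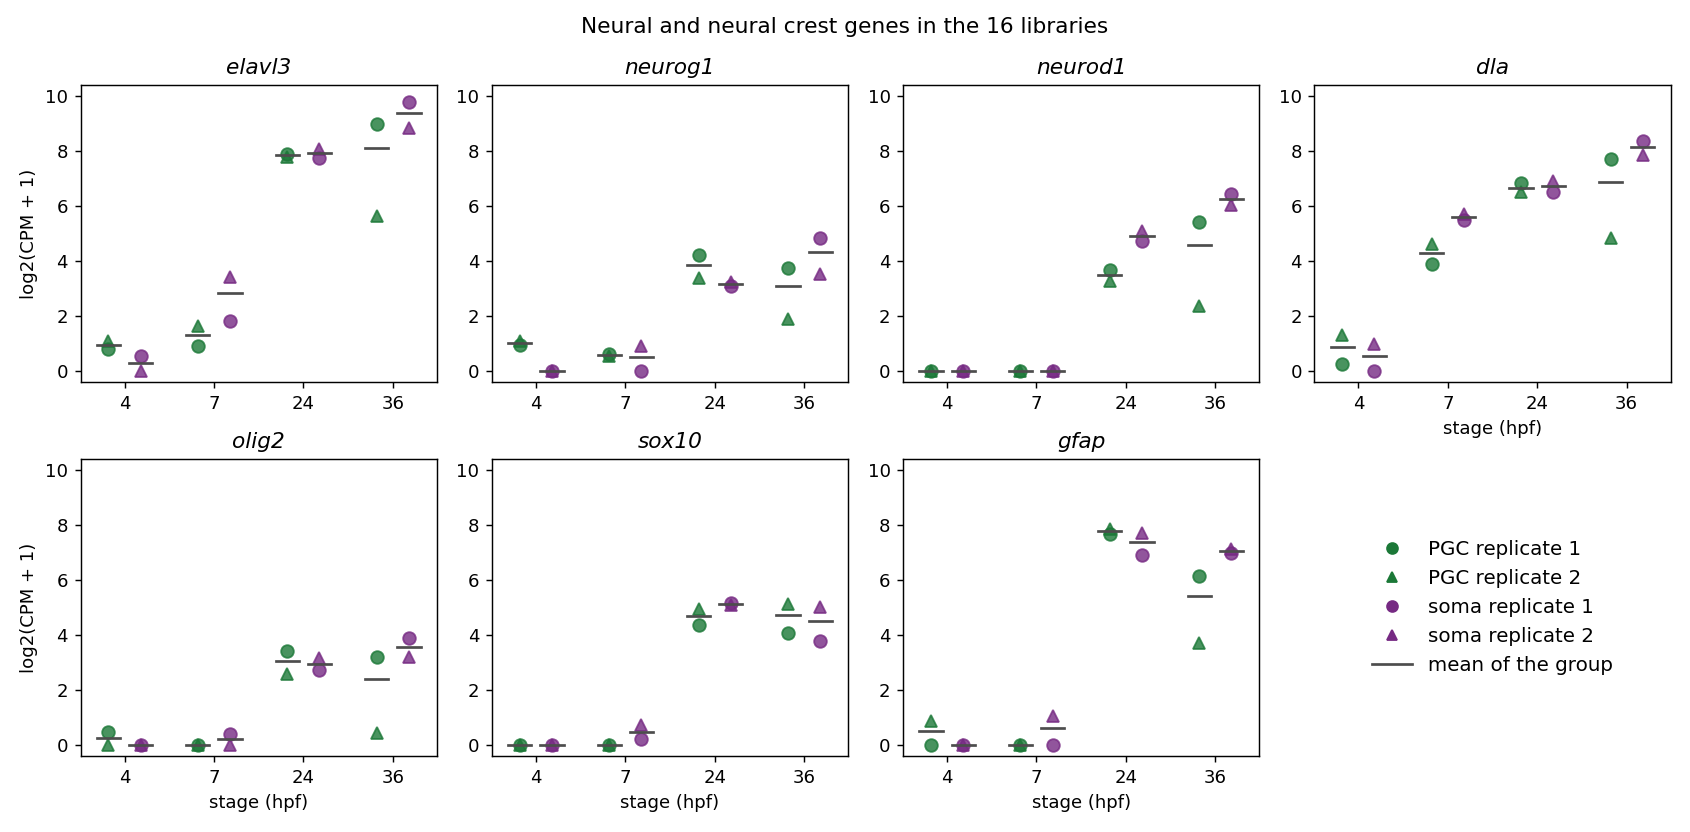
Level of each of the 7 genes in the 16 libraries, as log2(CPM + 1) against stage in hpf; points are libraries (green PGC, purple soma, circles replicate 1, triangles replicate 2) and bars the log2 of the group mean CPM plus 1. The genes are near 0 at 4 hpf, *dla* is the highest at 7 hpf in each library, all are present in both cell populations at 24 hpf, and at 36 hpf the triangle of PGC replicate 2 lies far below the other 3 libraries for each gene but *sox10*.

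At 24 hpf the neural genes were present in the PGC libraries at levels of the same order as in soma, with *neurod1* the farthest from equal. The neuronal gene *elavl3* had 239 and 219 CPM in PGCs, against 213 and 271 CPM in soma. The ligand *dla* had 112 and 89.6 CPM in PGCs, against 90.9 and 118 CPM in soma. For both genes the libraries of the 2 populations overlapped, with log2 fold changes of -0.08 (SE 0.77) for *elavl3* and -0.05 (SE 0.71) for *dla*.

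*neurog1*, the proneural factor, had 17.4 and 9.34 CPM in PGCs, against 7.60 and 8.42 CPM in soma. Its PGC libraries lay above both soma libraries, as those of 20.4% of all genes did. *neurod1*, the factor of differentiating neurons, had 11.8 and 8.64 CPM in PGCs, against 25.7 and 32.7 CPM in soma. It lay lower in PGCs without overlap, as did 15.7% of all genes, and its log2 fold change was -1.51 (SE 0.81, 95% interval -3.32 to 0.30).

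The progenitor gene *olig2* had 9.83 and 4.96 CPM in PGCs, against 5.67 and 7.94 CPM in soma. *gfap* of radial glia had 205 and 228 CPM in PGCs, against 119 and 210 CPM in soma. Both overlapped between the populations. The neural crest gene *sox10* had 19.4 and 30.01 CPM in PGCs, against 34.6 and 33.0 CPM in soma, and its PGC libraries lay below soma.

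None of the 7 genes was called between PGCs and soma at 24 hpf, and none passed at an unadjusted p under 0.05 (adjusted p = 1 for each, edgeR's quasi-likelihood test, Benjamini-Hochberg adjusted). Of all genes, 0.039% were called higher in PGCs and 0% lower. DESeq2, the likelihood ratio test and the unfiltered fit also called 0 of the 7. The intervals were wide: for *elavl3* the log2 fold change lay between -1.72 and 1.56, and for *olig2* between -2.43 and 2.67, so that changes of some size in either direction were not detectable with these libraries. In bulk RNA of sorted cells, fewer cells of a type and less RNA per cell cannot be told apart.

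Other tissues had RNA in the PGC libraries of 24 hpf too. The summed level of 3 skeletal muscle genes (*myod1*, *myog* and *actc1b*, of 5 listed) was 6856 and 12468 CPM in PGCs and 1539 and 10540 CPM in soma, and that of 4 red blood cell genes (*hbae1.1*, *hbae3*, *gata1a* and *alas2*, of 5 listed) was 64.3 and 57.5 CPM in PGCs and 252 and 223 CPM in soma. The summed level of 2 endothelial genes (*kdrl* and *cdh5*, of 3 listed) was 73.8 and 81.3 CPM in PGCs and 128 and 130 CPM in soma. That of 2 notochord genes (*tbxta* and *col9a2*, of 3 listed) was 558 and 513 CPM in PGCs and 329 and 579 CPM in soma. That of 3 epidermal genes (*krt4*, *krt5* and *epcam*, of 4 listed) was 3226 and 8312 CPM in PGCs and 8738 and 9094 CPM in soma. The yolk gene *apoa2* had 58.2 and 137 CPM in PGCs and 137 and 29.9 CPM in soma. The muscle sum was mostly *actc1b*, with 6759 and 12319 CPM in PGCs. Each of the 3 muscle genes overlapped soma in the PGC libraries, as did the notochord sum and *apoa2*. The blood, endothelial and epidermal sums lay below soma. The study reports a high estimated purity of its sorted PGCs, which could not be checked from these counts. Whether other cells in the sort carried the neural transcripts was not tested.

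At 36 hpf the 2 PGC libraries parted, and 6 of the 7 genes stood much lower in replicate 2 than in replicate 1. *elavl3* had 501 CPM in PGC replicate 1 and 48.6 CPM in PGC replicate 2, against 874 and 460 CPM in soma. *dla* had 206 CPM in PGC replicate 1 and 27.4 CPM in PGC replicate 2, against 332 and 228 CPM in soma. Replicate 1 exceeded replicate 2 by 10.3-fold for *elavl3* and 7.51-fold for *dla*, where the soma replicates differed by 1.90-fold and 1.46-fold.

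The proneural gene *neurog1* had 12.4 CPM in PGC replicate 1 and 2.70 CPM in PGC replicate 2, against 27.8 and 10.5 CPM in soma. *neurod1* had 41.7 CPM in PGC replicate 1 and 4.197 CPM in PGC replicate 2, against 85.5 and 64.4 CPM in soma. The PGC replicates of *neurog1* differed 4.61-fold and those of *neurod1* 9.94-fold, and for *neurod1* both lay below soma.

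*olig2* had 8.26 CPM in PGC replicate 1 and 0.375 CPM, which was 5 counts, in PGC replicate 2, against 13.7 and 8.28 CPM in soma. *gfap* had 70.6 CPM in PGC replicate 1 and 12.2 CPM in PGC replicate 2, against 124 and 139 CPM in soma. The replicates of *olig2* differed 22.0-fold, the widest gap of the 7 genes, and those of *gfap* 5.78-fold.

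*sox10*, the neural crest gene, ran the other way. It had 16.1 CPM in PGC replicate 1 and 34.4 CPM in PGC replicate 2, against 12.8 and 31.2 CPM in soma, so that replicate 1 was 0.468 times replicate 2 in PGCs and 0.411 times in soma. Replicate 2 was the higher one in both populations.

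Set against the mean CPM of the soma libraries, PGC replicate 1 of 36 hpf held between 53.7% (*gfap*) and 75.1% (*elavl3*) for the 7 genes. PGC replicate 2 held 3.40% for *olig2*, 5.60% for *neurod1*, 7.28% for *elavl3*, 9.29% for *gfap*, 9.79% for *dla* and 14.1% for *neurog1*, but 156% for *sox10*. At 24 hpf the same 2 values were between 29.6% and 218% over the 7 genes. Replicate 1 was there at least 4-fold above replicate 2 for 0 of the 7 genes in PGCs and 0 in soma. Of the 17805 genes with a mean of at least 1 CPM at 24 hpf, 1.67% did so in PGCs and 3.27% in soma. At 36 hpf PGC replicate 1 was at least 4-fold above replicate 2 in CPM for 6 of the 7 genes and for 9.1% of the 18443 genes with a mean of at least 1 CPM, a fold chosen after the values were seen. In soma at 36 hpf it was so for 0 of the 7 genes and 4.03% of those 18443 genes. The TMM factors of PGC replicates 1 and 2 were 1.06 and 1.61. In TPM, which use no TMM factor, the PGC gap was under 4-fold for *dla* (43.1 and 10.96), *gfap* (16.2 and 5.04) and *neurog1* (6 and 2.34).

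**Figure D2:**
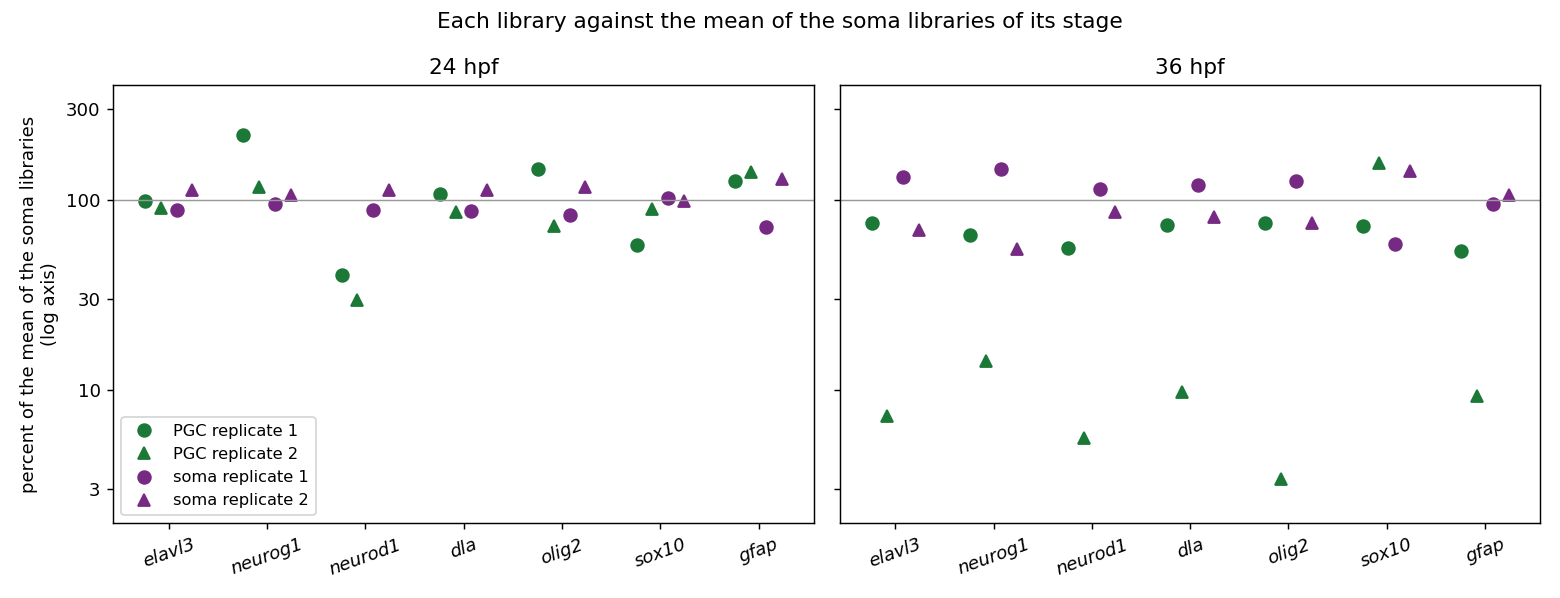
Each library's CPM as a percent of the mean of the 2 soma libraries of its stage, on a log axis, for the 7 genes at 24 hpf and 36 hpf (green PGC, purple soma, circles replicate 1, triangles replicate 2). At 36 hpf PGC replicate 2 lies between 3.40% and 14.1% for 6 genes and at 156% for *sox10*, while PGC replicate 1 lies between 53.7% and 75.1%.

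None of the 7 genes was called between PGCs and soma at 36 hpf with all libraries (edgeR's quasi-likelihood test, Benjamini-Hochberg adjusted), where 0.0146% of all genes were called lower in PGCs and 0.506% higher. The log2 fold changes were -1.28 (SE 0.78) for *elavl3*, -1.33 (SE 0.88) for *neurog1*, -1.70 (SE 0.81) for *neurod1*, -1.26 (SE 0.72) for *dla*, -1.34 (SE 1.18) for *olig2* and -1.67 (SE 0.77) for *gfap*, against 0.20 (SE 0.60) for *sox10*. The adjusted p-values lay between 0.316 (*gfap*) and 0.908 (*sox10*), and 1 gene, *gfap*, passed at an unadjusted p under 0.05. In CPM both PGC libraries lay below both soma libraries for 4 of the 7, *neurod1*, *dla*, *olig2* and *gfap*, beside 24% of all genes. In TPM *dla* and *olig2* overlapped, with 43.1 and 3.17 in PGC replicate 1 against 39.3 and 2.49 in soma replicate 2. DESeq2 and the likelihood ratio test called 0 of the 7, and the fit without a filter on low counts called 2, *neurod1* (adjusted p = 0.0421) and *gfap* (adjusted p = 0.00314). That unfiltered fit called 1022 of all 27454 genes in either direction.

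The outcome at 36 hpf rested on which PGC library was used. Without PGC replicate 1, 4 of the 7 genes were called lower in PGCs, beside 5.41% of all genes called lower and 2.32% called higher (edgeR's quasi-likelihood test, with the lone library assumed to vary like the other groups). The log2 fold changes were then -3.85 for *elavl3* (adjusted p = 0.00550), -4.22 for *neurod1* (adjusted p = 0.00583), -3.42 for *dla* (adjusted p = 0.00799) and -3.49 for *gfap* (adjusted p = 0.0178). The other 3 were *olig2* at -4.88 (adjusted p = 0.0709), *neurog1* at -2.90 (adjusted p = 0.143) and *sox10* at 0.59 (adjusted p = 0.641). Without PGC replicate 2 none was called, beside 0% of all genes called lower and 0.155% called higher, and the values lay between -0.41 (*elavl3*) and -0.89 (*gfap*), *sox10* included at -0.45.

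**Figure D3:**
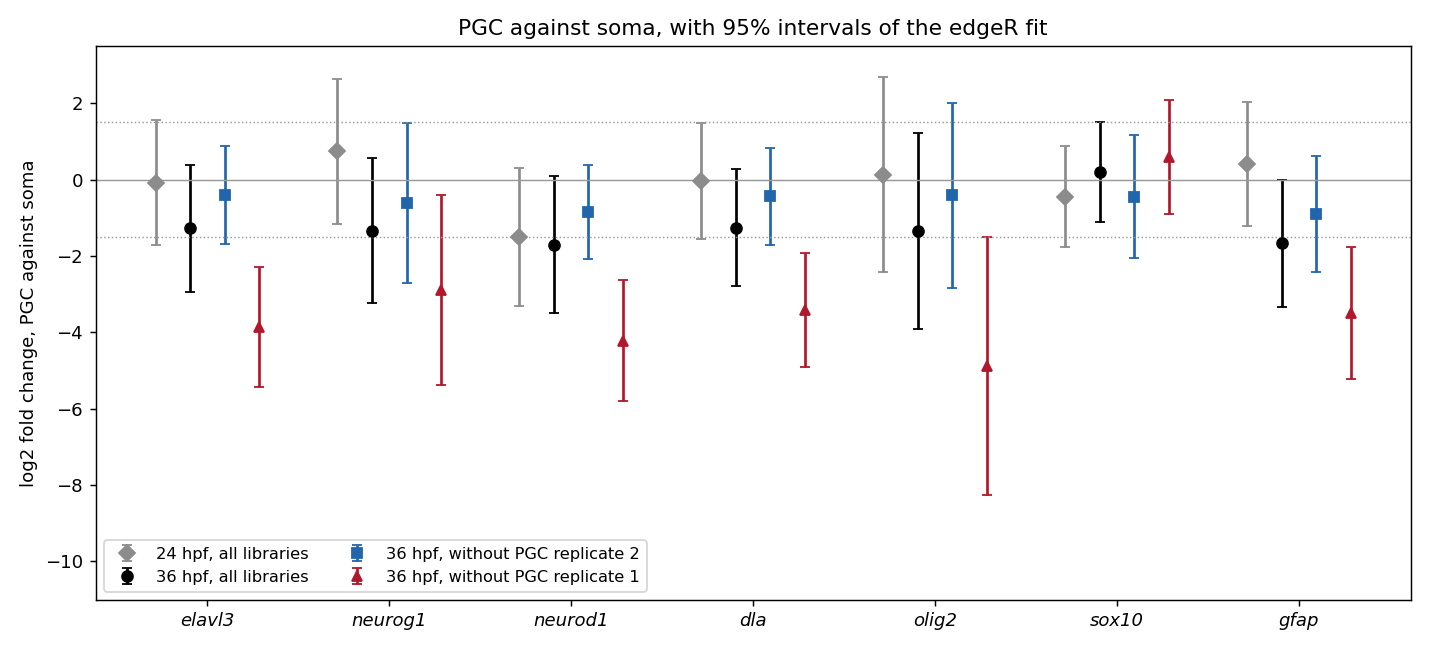
Log2 fold change of PGC against soma for the 7 genes with 95% intervals of the edgeR fit, at 24 hpf and 36 hpf with all libraries and at 36 hpf without either PGC library; dotted lines mark 1.5 in both directions. Without PGC replicate 1 the values of *elavl3*, *neurod1*, *dla* and *gfap* lie between -4.22 and -3.42, and without PGC replicate 2 all 7 intervals include 0.

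Averaged over 24 and 36 hpf none of the 7 genes was called, beside 0.039% of all genes lower in PGCs and 0.711% higher, and 1 passed at an unadjusted p under 0.05. This was *neurod1*, at -1.61 (SE 0.57, adjusted p = 0.268, edgeR's quasi-likelihood test). Without PGC 36 hpf replicate 1, 3 were called lower, *elavl3* at -1.99 (adjusted p = 0.0120), *neurod1* at -2.89 (adjusted p = 0.00338) and *dla* at -1.75 (adjusted p = 0.0182), beside 1.91% of all genes called lower and 1.75% called higher. Without PGC 36 hpf replicate 2 none of the 7 was called, beside 0.0188% of all genes called lower and 0.306% called higher. DESeq2 and the likelihood ratio test called 0 of the 7 with all libraries. The unfiltered fit called *neurod1*, beside 664 of all 27454 genes in either direction.

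Markers of other tissues shifted between the PGC libraries of 36 hpf as well. The germ cell genes had 0.307 to 0.566 times the level in replicate 1 that they had in replicate 2. The red blood cell genes summed to 373 CPM in PGC replicate 1 and 21.4 CPM in PGC replicate 2, against 1533 and 419 CPM in soma, with *gata1a* at 0 in replicate 2. The 3 epidermal genes (*krt4*, *krt5* and *epcam*, of 4 listed) summed to 2150 CPM in PGC replicate 1 and 646 CPM in PGC replicate 2, against 2710 and 16928 CPM in soma.

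The endothelial genes stood at 27.1 CPM in PGC replicate 1 and 10.04 CPM in PGC replicate 2, against 71.5 and 63.8 CPM in soma. The summed muscle genes were the reverse, with 188 CPM in PGC replicate 1 and 281 CPM in PGC replicate 2, against 245 and 1075 CPM in soma. That sum was mostly *actc1b*, with 185 and 279 CPM in PGC replicates 1 and 2. The other muscle genes were not the reverse, with 2.06 and 0.824 CPM for *myod1* and 1.21 and 1.20 CPM for *myog*. Blood, epidermal and endothelial genes were thus lower in replicate 2, the library with more germ cell RNA, and the muscle sum was not. The yolk gene *apoa2* had 274 CPM in PGC replicate 1 and 1.65 CPM in PGC replicate 2, against 271 and 0.951 CPM in soma, so that replicates of the same number were alike. A fixed pair of abundant genes, the same in all libraries and not ranked within each, took 24.4% of the counts in PGC replicate 1. It took 10.6% in PGC replicate 2, against 39.1% and 35.7% in soma. The part of the sort, the depth or these genes in the neural values was not tested.

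Counts relative to *elavl3* were compared over the 8 libraries of 24 and 36 hpf. The proportion of *dla* varied less than its level, while those of *gfap* and *sox10* varied widely. *dla* had 46.9 and 40.9 counts per 100 counts of *elavl3* in PGCs at 24 hpf, against 42.7 and 43.5 in soma. At 36 hpf it had 41.1 and 56.5 in PGCs, against 38.0 and 49.5 in soma, so that PGC replicate 2 had a like proportion at a level 7.51-fold lower than replicate 1.

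*neurod1* had 4.94 and 3.94 counts per 100 of *elavl3* in PGCs at 24 hpf, against 12.1 and 12.1 in soma. At 36 hpf it had 8.32 and 8.64 in PGCs, against 9.78 and 14.003 in soma. The PGC libraries lay below soma at both stages, and the 2 PGC libraries of 36 hpf were alike in this ratio.

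*gfap* had 85.9 and 104 counts per 100 of *elavl3* in PGCs at 24 hpf, against 55.7 and 77.7 in soma. At 36 hpf it had 14.1 and 25.2 in PGCs, against 14.2 and 30.3 in soma. The proportion of the glial to the neuronal gene was lower at 36 hpf than at 24 hpf in both populations, in every library. *olig2* had 1.65 and 0.772 in PGCs at 36 hpf, against 1.57 and 1.80 in soma, and *neurog1* 2.48 and 5.56 in PGCs, against 3.18 and 2.27 in soma.

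*sox10* stood apart here. It had 8.12 and 13.7 counts per 100 of *elavl3* in PGCs at 24 hpf, against 16.2 and 12.2 in soma. At 36 hpf it had 3.21 in PGC replicate 1 and 70.8 in PGC replicate 2, against 1.47 and 6.79 in soma. The value of PGC replicate 2 was the highest of the 8 libraries.

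**Figure D4:**
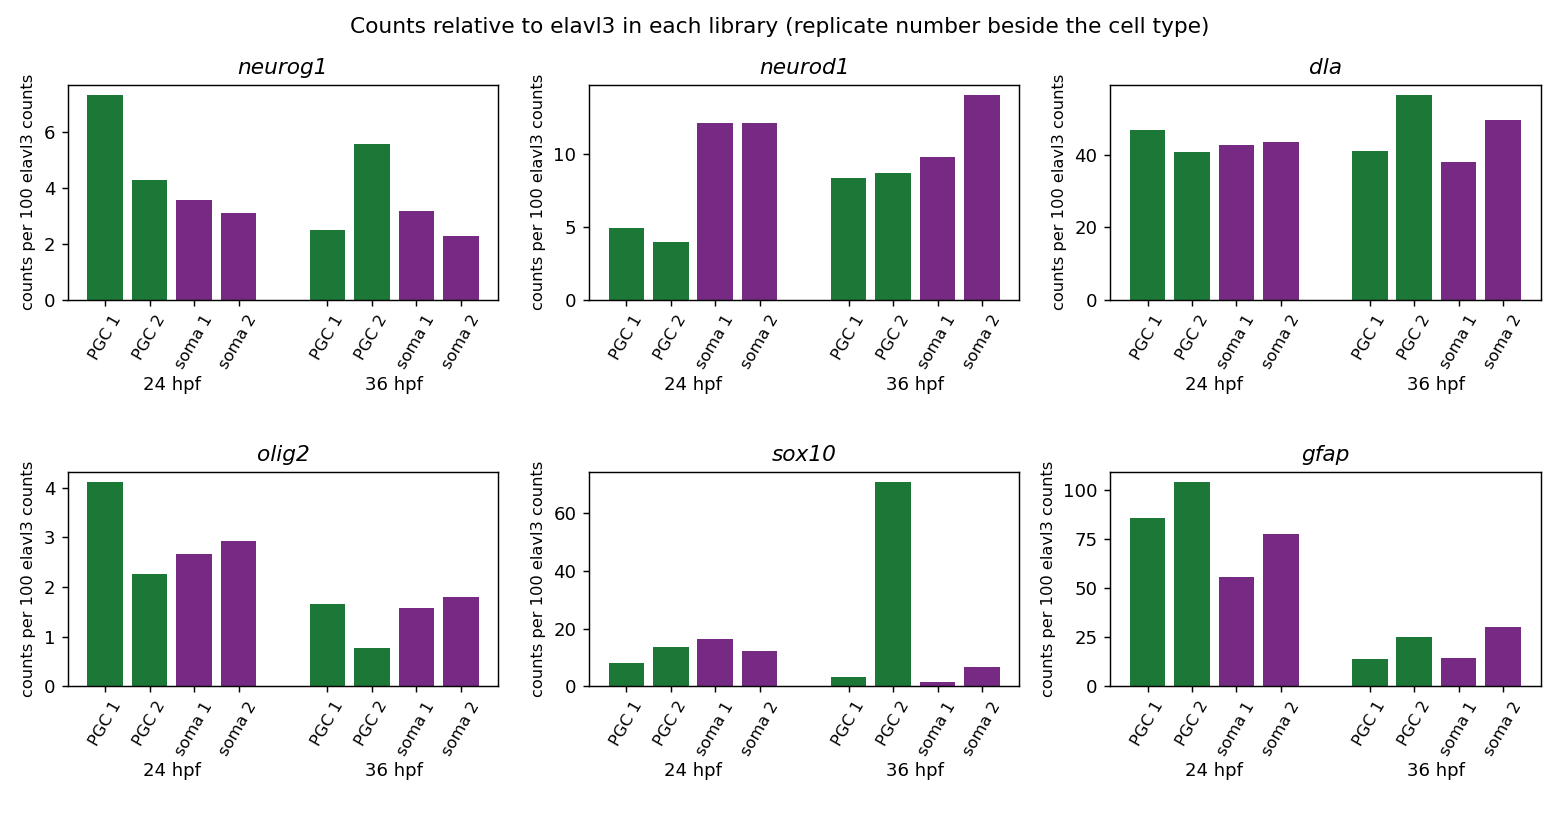
Counts of 6 genes per 100 counts of *elavl3* in each library of 24 hpf and 36 hpf; each bar is 1 library (green PGC, purple soma), and axes start at 0. *dla* stays between 38.0 and 56.5 in all 8 libraries, *gfap* is lower at 36 hpf in both populations, and *sox10* reaches 70.8 in PGC 36 hpf replicate 2 alone.

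From 24 to 36 hpf no gene of the 7 was called in PGCs, where 0.185% of all genes were called higher and 1.69% lower, and none in soma, where 0% were called in either direction (edgeR's quasi-likelihood test). In PGCs 1 of the 7 passed at an unadjusted p under 0.05, *gfap*, at -2.39 (SE 0.78, adjusted p = 0.162). It was called without PGC 36 hpf replicate 1 (-4.11, adjusted p = 0.0171), as 3.75% of all genes then were in that direction. It was also called by the likelihood ratio test (adjusted p = 0.0426), by limma on log2(TPM + 1) (adjusted p = 0.0333) and without a filter on low counts (adjusted p = 5.49e-06), but not by DESeq2. Those settings called more of all genes too. In either direction they called 1083 of 20536, 2162 of 18618 and 1220 of 27454 genes in the same order. The main fit called 38 higher and 347 lower.

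In soma *elavl3* differed by 1.46 (SE 0.78, adjusted p = 0.562), *dla* by 1.42 (SE 0.72, adjusted p = 0.539) and *neurod1* by 1.36 (SE 0.80, adjusted p = 0.625) between 36 and 24 hpf, and none of the 7 passed at an unadjusted p under 0.05. The unfiltered fit called *elavl3* (adjusted p = 0.00603), beside 753 of all 27454 genes in either direction, and DESeq2 called 0 of the 7. The change from 24 to 36 hpf was not called different between PGCs and soma for any of the 7, beside 0% of all genes, and none passed at an unadjusted p under 0.05. Its largest values were -2.08 for *neurog1* (SE 1.25) and -2.06 for *gfap* (SE 1.07). Without PGC 36 hpf replicate 1, *elavl3* was called, at -3.74 (adjusted p = 0.0487), beside 0.846% of all genes called lower and 0.133% called higher.

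Per kilobase of effective gene length, *elavl3* was the highest of the 7 in both populations at 24 and 36 hpf. At 24 hpf it averaged 150 ± 22.7 CPM per kilobase in PGCs and 148 ± 19.1 in soma (SD, n = 2 each), followed by *gfap* with 89.0 ± 6.61 in PGCs and 67.6 ± 26.7 in soma. *dla* came next, with 39.5 ± 4.73 CPM per kilobase in PGCs and 40.1 ± 6.24 in soma. Below it *neurog1*, *sox10*, *olig2* and *neurod1* lay between 4.63 (*neurod1*) and 11.4 (*neurog1*) in PGCs, and between 4.65 (*olig2*) and 13.3 (*neurod1*) in soma. Neighbours among these 4 overlapped in PGCs.

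At 36 hpf *elavl3* averaged 195 ± 239 CPM per kilobase in PGCs and 422 ± 209 in soma (SD, n = 2 each), *dla* 44.5 ± 47.3 in PGCs and 110 ± 28.8 in soma, and *gfap* 17.2 ± 17.1 in PGCs and 54.2 ± 4.49 in soma. In PGCs the SD was about as large as the mean for each of these, since the 2 libraries differ, and neighbours in the order do not differ beyond that spread. Within each PGC library *elavl3*, *dla* and *gfap* kept this order, at 364, 77.9 and 29.3 in replicate 1 and 25.4, 11.1 and 5.08 in replicate 2. *sox10* stood at 11.6 in replicate 2, above *dla*. In soma *elavl3*, *dla*, *gfap* and *neurod1* followed each other without overlap, and *neurog1*, *olig2* and *sox10* overlapped below them. In every library *dla* stood above *gfap* at 36 hpf and below it at 24 hpf. The effective length of *elavl3* itself ranged between 1378 and 1913 bases over these 8 libraries.

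Of a wider list of 61 neural and neural crest genes, 32 were matched by symbol and 28 passed the filter on low counts. Between PGCs and soma at 24 hpf 0 of the 28 were called, beside 0.039% of all genes called higher and 0% called lower. Their median log2 fold change was -0.06, against 0.06 over all genes. At 36 hpf 0 were called as well (edgeR's quasi-likelihood test), beside 0.506% of all genes called higher and 0.0146% called lower. There 26 of 28 lay below 0, with a median of -1.14 against 0.00 over all genes. By group the medians at 36 hpf were -1.29 for 9 proneural and Notch genes, -1.09 for 7 neuronal genes, -1.29 for 3 progenitor genes and -0.86 for 9 neural crest genes. These values depended on the PGC library. As a percent of the soma mean, the median of the proneural and Notch genes was 71.4% in PGC replicate 1 and 10.6% in PGC replicate 2. It was 83.3% and 16.8% for neuronal genes, 73.6% and 7.95% for progenitor genes, and 58.7% and 53.9% for neural crest genes.

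The lowest values were those of the motor neuron gene *mnx1* (-3.91, SE 1.53, adjusted p = 0.264), the Notch target *her4.1* (-2.26, SE 1.23, adjusted p = 0.384) and the mesenchymal factor *twist1a* (-2.25, SE 0.80, adjusted p = 0.226). *mnx1* was low in all 4 libraries, with 0 and 0.150 CPM in PGCs and 0.204 and 2.44 CPM in soma. The value of *her4.1* rested largely on soma replicate 2, with 17.6 and 18.4 CPM in PGCs and 20.7 and 152 CPM in soma. The highest were the reticulon *rtn1b* (0.33, SE 0.63), the Delta ligand *dld* (0.15, SE 0.38) and *ets1* (-0.06, SE 0.70). *dld* had 64.4 and 61.0 CPM in PGCs at 36 hpf, against 49.2 and 63.6 CPM in soma, so that it did not share the gap between PGC replicates that its relative *dla* had.

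The replicate gap of 36 hpf was also counted in these groups, without a test between them. Replicate 1 was at least 4-fold above replicate 2 in the CPM of PGCs for 7 of 9 proneural and Notch genes, 3 of 7 neuronal genes, 3 of 3 progenitor genes and 3 of 9 neural crest genes. Of the 18443 genes with a mean of at least 1 CPM, 9.1% did so. The groups had no such cut on the mean, and a gene with no count in replicate 2 was counted. The neural progenitor factor *sox2* had 38.7 CPM in PGC replicate 1 and 2.02 CPM in PGC replicate 2, against 61.2 and 47.9 CPM in soma. Among neural crest genes, *snai2* had 13.1 CPM in PGC replicate 1 and 25.3 CPM in PGC replicate 2, against 10.3 and 34.2 CPM in soma, the same order of replicates as *sox10*. *crestin*, another neural crest marker, had 28.5 CPM in PGC replicate 1 and 6.67 CPM in PGC replicate 2, against 34.3 and 48.2 CPM in soma, the opposite order in PGCs.

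**Figure D5:**
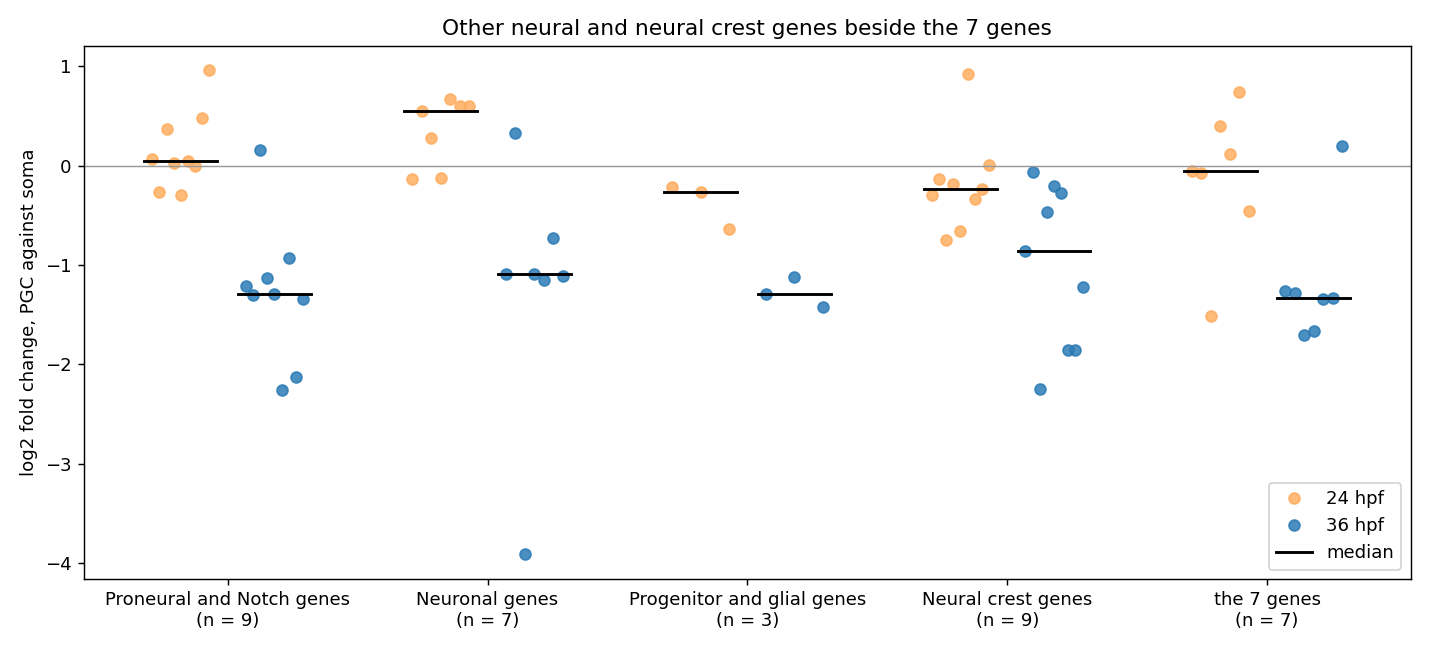
Log2 fold change of PGC against soma at 24 hpf (orange) and 36 hpf (blue) for the 28 other neural genes by group and for the 7 genes; points are genes and black bars medians. At 36 hpf the group medians lie between -1.29 and -0.86 for the other genes. At 24 hpf they lie between -0.27 (progenitor genes) and 0.55 (neuronal genes), with -0.06 over the 28.

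From 7 to 24 hpf 12 of the 28 rose in PGCs, and in soma 11 rose and 1 fell (*tfap2a*, -1.85, adjusted p = 0.0162, edgeR's quasi-likelihood test). These are 42.9% of the list in PGCs, beside 18.2% of all genes called higher, and 39.3% in soma, beside 22.1% called higher and 8.76% called lower. At 7 hpf 1 of the 28 was called between PGCs and soma, the neural crest factor *foxd3*, lower in PGCs at -2.18 (adjusted p = 0.0151), beside 0.813% of all genes. From 24 to 36 hpf *foxd3* was also the 1 gene of the list called in PGCs, at -2.11 (adjusted p = 0.0227), beside 1.69% of all genes called lower.

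The genes whose levels ran most like each member over the 16 libraries are given as a description, since the libraries share stages and the rise between 7 and 24 hpf is in all of them. The measure is Pearson's r of log2(CPM + 1) over 18105 other genes with a mean of at least 1 CPM. For *elavl3* they were BAHCC1 (0.994), *kdm6bb* (0.990) and EBF2 (0.989). For *neurog1* the first 2 were GSX1 (0.977) and *tmsb* (0.977), and for *neurod1* the haemoglobin genes *hbae3* (0.997) and HBE1 (0.996), with an unnamed gene (ENSDARG00000090689) next.

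For *dla* the closest were NOVA1 (0.990), *histh1l1* (0.987) and NAT8L (0.983), and for *olig2* ISL1 (0.985), *pcdh1g32* (0.983) and *en1b* (0.983). For *sox10* they were *kank3* (0.989), *radil2a* (0.988) and *krt18b* (0.987), and for *gfap* SLIT1 (0.996), TNC (0.994) and *hapln1a* (0.993). None of the 7 was among the 3 closest genes of another. The nearest of the 7 to *elavl3* was *gfap*, at rank 181 (r = 0.964), and the farthest was *dla*, at rank 1701 (r = 0.881).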

How the data were processed

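PGCs and somatic cells were sorted at 4 stages, and total RNA was sequenced. Per the labels and methods, the authors trimmed reads with Trim Galore, aligned them to danRer10 with STAR and quantified genes with RSEM. They deposited expected counts (not normalised, 95.2% whole numbers), TPM (scaled for gene length and library total by the authors) and effective lengths, stored here as other values in bases.

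Expected counts were rounded, 92 spike-in rows were left out, and genes were filtered with filterByExpr. All 16 libraries entered 1 edgeR 4.0.16 quasi-likelihood fit of 8 groups with TMM (R 4.3.3), and p-values were adjusted over the 20536 genes tested. A gene was called at an adjusted p under 0.05 and a log2 fold change past 1.5. CPM are TMM-normalised. A bound on a fold sets the lower library against 3 counts in the shallower one. SE is the fold change over the root of F. Per length, CPM was divided by the effective length. On simulated counts the fit recovered, of 100 genes changed by 2 on the log2 scale, 16% in the 24 hpf comparison (18968 genes) and 17% in that of 36 hpf (19112 genes), and, of 100 changed by 3, 55% and 44% in the same order.

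The members and lists were chosen with earlier results of these data known. The rule on names gave the 7 genes, 6 germ cell markers, the 3 closest genes of each member (1 of them, for *neurog1*, is not reported here) and, of the other neural genes, the 3 highest and 3 lowest at 36 hpf; *dld*, *sox2*, *snai2*, *crestin*, *foxd3*, *tfap2a* and *gata1a* were named after their values were seen. Names came from a table that holds 26790 of the 34289 identifiers, lists *dla* as DLL1 and gives some genes mammalian symbols. Germ cell, muscle, blood, endothelial and epidermal lists are given in the text, and muscle genes were given singly after their values were seen. In the notochord list (*tbxta* and *col9a2*, of 3 listed) the summed level was 22.8 and 15.7 CPM in PGCs at 36 hpf, against 32.2 and 246 CPM in soma. Replicates were compared and none repeated another. Alternatives were DESeq2 1.42.0, RLE factors, other filters, the likelihood ratio test, a replicate block, length offsets, single stages, limma 3.58.1 on log2 TPM with pseudocounts of 1 and 0.1, and each library left out. Sequences are not used here.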

Additional observations from a re-analysis of the deposited data

How the results depend on the processing

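Depth and n = 2 limit these results: 4 and 7 hpf rest on few counts. Of the counts of genes called among the 7, those between PGCs and soma at 4 and 24 hpf were 0 under each alternative. Without a filter on low counts, 1 was called at 7 hpf, 2 at 36 hpf, 1 in the mean of 24 and 36 hpf and 1 from 24 to 36 hpf in PGCs and in soma each. The change from 24 to 36 hpf in PGCs had 1 call by the likelihood ratio test and by limma on log2(TPM + 1). The change from 4 to 7 hpf in soma had 1 call with length offsets and with limma at either pseudocount. The unfiltered fit tested 27454 genes and called 1022 at 36 hpf, against 107 of all genes with the filter; the cause was not tested.

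With 1 library left out, the number called lay between 0 and 4 between PGCs and soma at 36 hpf, between 0 and 3 in the mean of 24 and 36 hpf, between 4 and 7 for PGCs and between 4 and 6 for soma from 7 to 24 hpf, between 0 and 1 for PGCs and between 1 and 2 for soma from 4 to 7 hpf, and between 0 and 1 for PGCs from 24 to 36 hpf and for the difference of those changes. A lone library was assumed to vary like the other groups.

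Values near 0 at 24 hpf changed sign. *elavl3* was at 0.027 with length offsets, and *olig2* at -0.15 and -0.28 with limma at pseudocounts of 1 and 0.1. With 1 library left out, *elavl3* lay between -0.24 and 0.11, *dla* between -0.22 and 0.15 and *olig2* between -0.45 and 0.53. At 36 hpf *sox10* lay between -0.45 (without PGC replicate 2) and 0.96, and at -0.32 without soma replicate 1.

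Replicate numbers do not mark shared clutches in the labels. Same-numbered libraries of PGCs and soma deviated together with r between 0.108 and 0.323 at a stage, across genes. With the replicate block 0 of the 7 were called in each comparison of PGCs and soma, and 134 genes of all at 36 hpf, against 107. The 4 hpf libraries alone left none of the 7 to test, and 7 hpf alone left 2.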
